A study of Homo sapiens with 8 samples.

Results

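The IL6 family of cytokines and the STAT3 route they use were followed in U87 cells, an established human glioblastoma line, after RNA interference against RND3. The 10 genes were fixed by name, with earlier results of these data known. They are the ligands IL6, LIF, IL11 and CLCF1, the receptor chains IL6R, IL6ST, LIFR and OSMR, the transcription factor STAT3 and its feedback inhibitor SOCS3. These are 10 of the 19483 genes that a probe of the array could be tied to by accession, and 18 probes report them. IL6ST has 7 probes, LIF and STAT3 have 2 each and the other 7 genes have 1 each.

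Cytokines of this family act through the shared signalling chain IL6ST, also called gp130. IL6 and IL11 first bind a chain of their own (IL6R for IL6) and then a pair of gp130 molecules. LIF signals through gp130 paired with LIFR, chains that are also part of the receptor for CLCF1. Oncostatin M can use gp130 paired with OSMR. Kinases of the JAK family bound to these chains phosphorylate STAT3, which enters the nucleus and switches on genes that include SOCS3, and SOCS3 then blocks the receptor. In glioblastoma the pathway is known for supporting growth, stem-like cells and the mesenchymal state.

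The study asked how U87 cells respond when RND3, an atypical small GTPase, is depleted. All cells were grown and reverse transfected alike, and the labels name no other treatment in either group. Cells given non-silencing oligonucleotides (siControl) and cells given siRNA against RND3 (siRND3) were each profiled on 3 arrays at 24 h and on 1 array at 48 h, with total RNA labelled in 1 colour. The knockdown is transient and rests on a pair of siRNAs in a single line, the array that received each siRNA is not given in the sources used here, and nothing says that replicates came from separate transfections, so p-values measure the spread between these arrays, which may be technical. All 8 arrays sat on 1 slide scanned once, with siControl in row 2 and siRND3 in row 1, so the treatment and the position on the slide cannot be told apart. RND3 (A_23_P142849) read 11.88, 11.91 and 11.90 in siControl and 10.12, 10.18 and 10.42 in siRND3 at 24 h, and 11.48 against 9.84 at 48 h, all as log2 intensity. It was lower by a log2 difference of -1.66 ± 0.10 (SE) at 24 h (limma, adjusted p = 0.000345). The exact permutation test gave a two-sided p of 0.1, the smallest that 3 arrays against 3 can reach.

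As a check of the cell type, 8 glial and glioma markers were read. GFAP and SOX2 were not well above background on any of the 8 arrays, and S100B and AQP4 were each so on 1. Vimentin (VIM), nestin (NES) and FABP7 were well above background on all 8 arrays and OLIG2 on 7. Of the glial and glioma list OLIG2, an oligodendrocyte lineage factor, fell by a log2 difference of 1.40 (limma, adjusted p = 0.00165), and 1 of the 2 NES probes rose by 0.41 (limma, adjusted p = 0.0472). At 48 h this NES probe (A_23_P103672) read 7.53 in siControl and 9.62 in siRND3, and the other (A_33_P3358233) read 9.25 and 9.63. The effect on the first was above that at 24 h by 1.69, a call lost when any 1 of the 3 siControl arrays at 24 h was left out. Markers of other cell types moved in part with the knockdown. CSF1R, a receptor of myeloid cells, was lower at 24 h by 0.35 (limma, adjusted p = 0.0295), the only call among the 6 leukocyte markers tested, and the summed level of that list relative to siControl at 24 h ran from 0.782 to 0.846 in siRND3 against 0.962 to 1.04 in siControl, and was 0.399 against 1.09 at 48 h. PECAM1 was the only call among 4 endothelial markers, lower by 0.99 on 1 of its 2 tested probes (limma, adjusted p = 0.0216), with sums of 0.975 to 1.07 in siRND3 and 0.957 to 1.02 in siControl at 24 h and 0.938 against 1.12 at 48 h. At 48 h that probe (A_23_P252471) read 6.69 in siControl and 3.24 in siRND3, where it was not well above background, and the effect at 48 h was below that at 24 h by a log2 difference of -2.45 (limma, adjusted p = 0.0341). For that probe the call of a different effect at 48 h was lost when any 1 of the 3 siControl arrays at 24 h was left out. It was also lost without siRND3 replicate 2 or siRND3 replicate 3 and with no filter on dim probes. The values ran from -2.66 to -2.31 over the arrays left out in turn. The second PECAM1 probe (A_33_P3405213) differed by -0.58 at 24 h (limma, adjusted p = 0.064) and read 6.14 against 5.11 at 48 h. Its effects at the 2 times differed by -0.45, which did not pass. The CSF1R and PECAM1 calls at 24 h were each lost without siControl replicate 1, siControl replicate 2 or siControl replicate 3, that of CSF1R also without siRND3 replicate 1 or siRND3 replicate 3 and that of PECAM1 without siRND3 replicate 2 (limma, highest adjusted p = 0.126 and 0.0787). The NES call was lost without each of the 6 arrays in turn except siRND3 replicate 1 (limma, highest adjusted p = 0.136), and the OLIG2 call was kept. At 48 h CSF1R read 11.30 in siControl and 9.59 in siRND3. Its effect there was below that at 24 h by a log2 difference of -1.37, a call lost when any 1 of the 3 siControl arrays at 24 h was left out. All 6 leukocyte markers were well above background on all 8 arrays, and the 4 fibroblast markers tested (COL1A1, COL1A2, PDGFRB and THY1) differed by -0.11 to 0.07 at 24 h. The part of these markers in the results for the cytokine genes was not tested.

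At 24 h, 5 of the 10 genes were lower in siRND3 and none was higher. The ligands LIF, IL11 and IL6 fell to 42.2%, 45.4% and 57.8% of siControl, the receptor chain LIFR to 56.8% and SOCS3 to 74.5%, while CLCF1, IL6ST, IL6R, OSMR and STAT3 did not pass the test. Over all 14805 genes tested, 9.26% were called lower and 7.16% higher by the same rule, which counts a gene when at least 1 of its probes reaches an adjusted p under 0.05 and none does so in the other direction. Because the 10 genes were chosen with earlier results of these data known, the contrast with these shares is not that of an unselected list. The 5 calls came from limma over 28759 probes that were bright enough in at least 1 group (each of its arrays well above background), and all 18 probes of the family met this condition on all 8 arrays. At an unadjusted p under 0.05 limma counted 7 lower (with CLCF1 and IL6ST) and 1 higher (IL6R). IL6ST enters this count through any 1 of its 7 probes. The share of all genes at that threshold was not computed, here or below, so counts at an unadjusted p cannot be set against it. SAM, the test named in the methods, gave 5 lower and 0 higher at a false discovery rate of 5%. In bulk RNA, fewer cells making a transcript and less of it per cell cannot be told apart. Taking the brightest probe of each gene, the median log2 difference of the 10 genes was -0.31 with 9 of 10 below 0, beside a median of 0.04 over all genes tested.

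**Figure D1:**
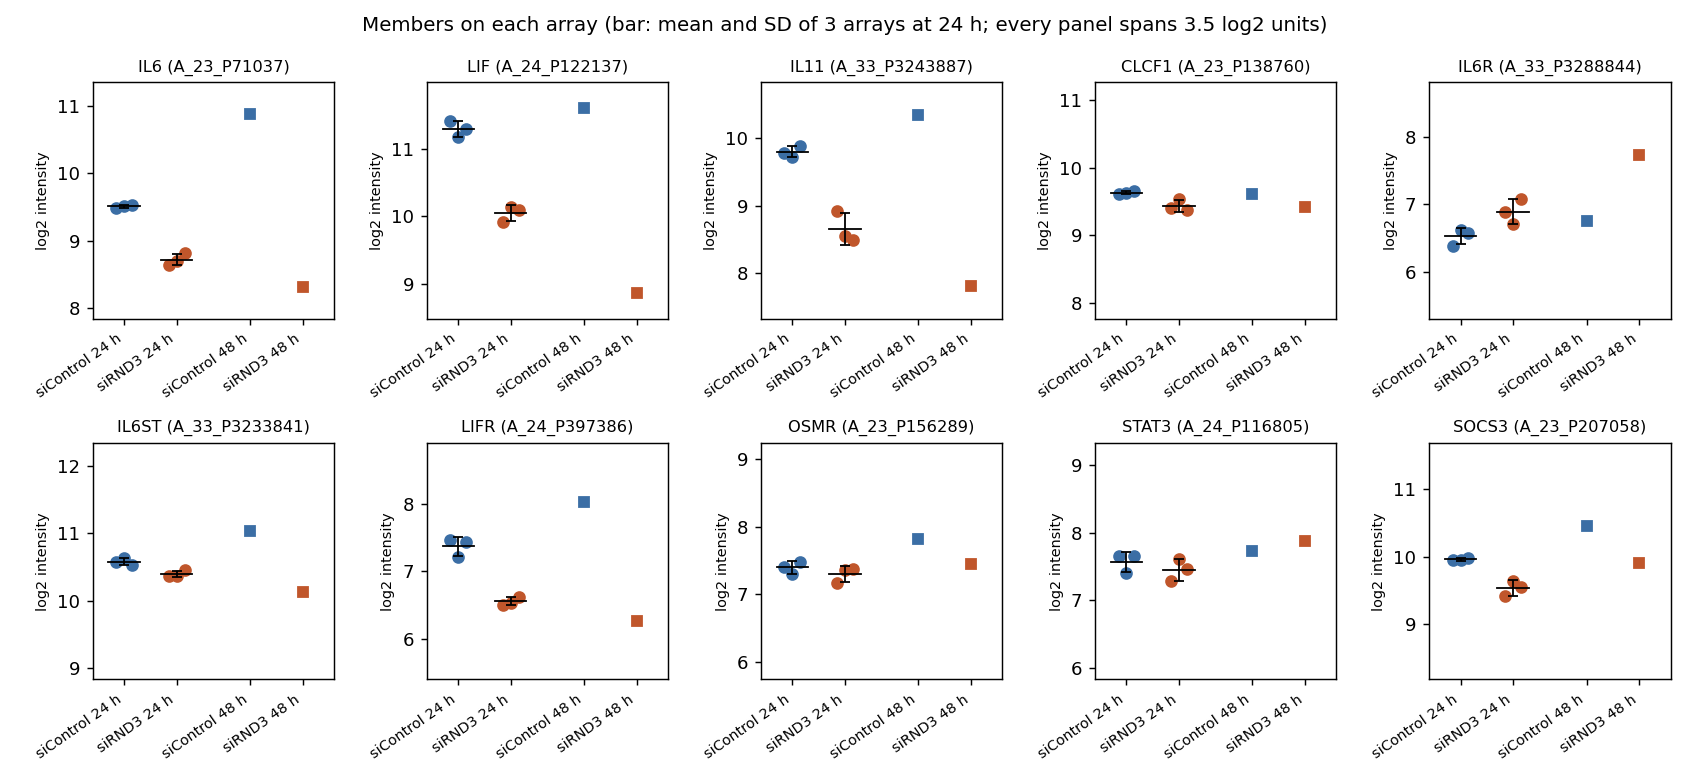
Quantile-normalised log2 intensity (vertical axis) of the brightest probe of each of the 10 genes on every array, with siControl in blue and siRND3 in orange, circles at 24 h (3 arrays per group, bar for the mean and whisker for the SD) and squares at 48 h (1 array per group). Each panel spans the same number of log2 units, so the gaps can be compared but not the heights. At 24 h the orange points of IL6, LIF, IL11, LIFR and SOCS3 lie clear below the blue ones, and those of OSMR and STAT3 overlap them.

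LIF, leukaemia inhibitory factor, was the ligand with the largest difference at 24 h. Its brighter probe (A_24_P122137) read 11.41, 11.17 and 11.29 log2 units in the 3 siControl arrays and 9.92, 10.13 and 10.09 in the 3 siRND3 arrays. The highest siRND3 array was more than 1 unit under the lowest siControl array. The difference was -1.24 ± 0.10 (SE), with a 95% interval of -1.48 to -1.01 (limma, adjusted p = 0.000884). The dimmer probe (A_24_P233488), which targets the same transcript (NM_002309), read 6.61, 6.54 and 6.40 against 5.84, 5.64 and 5.84. Here too the groups did not overlap, and the difference was -0.74 ± 0.10 (limma, adjusted p = 0.00598). That smaller size depended on the background handling, being -0.40 after normexp correction.

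IL11, a cytokine best known from bone, blood and fibrotic tissue, behaved alike at 24 h. Its probe (A_33_P3243887, NM_000641) read 9.78, 9.72 and 9.88 in siControl and 8.92, 8.55 and 8.50 in siRND3. The groups did not overlap, although siRND3 replicate 1 stood closer to siControl than the other 2 siRND3 arrays. The log2 difference was -1.14 ± 0.13 (limma, adjusted p = 0.00353).

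IL6, the founding cytokine of the family and a product of many glioblastoma lines, was the third ligand that fell at 24 h. The probe (A_23_P71037, NM_000600) read 9.49, 9.51 and 9.54 in siControl and 8.65, 8.71 and 8.82 in siRND3 at 24 h. The highest siRND3 array was well under the lowest siControl array. The difference was -0.79 ± 0.08, with a 95% interval of -0.97 to -0.61 (limma, adjusted p = 0.00185). It was -1.24 when all 8 arrays entered the fit with treatment and time as terms, which draws on the larger gap at 48 h described below.

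CLCF1, a neurotrophic ligand that is secreted with a partner protein, was the exception among the ligands. It read 9.61, 9.63 and 9.66 in siControl and 9.41, 9.53 and 9.37 in siRND3 at 24 h (A_23_P138760, NM_013246). The groups did not overlap but the gap was narrow, and the difference of -0.20 did not pass the test (95% interval -0.38 to -0.01; limma, adjusted p = 0.152).

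Among the receptor chains only LIFR fell. LIFR, the chain that gp130 needs to respond to LIF and CLCF1, read 7.47, 7.20 and 7.43 in siControl and 6.50, 6.53 and 6.62 in siRND3 at 24 h (A_24_P397386, NM_002310). The groups were apart by more than their spread, and the difference was -0.82 ± 0.09 (limma, adjusted p = 0.00391). After normexp correction its size was -0.53, still past the threshold (limma, adjusted p between 0.00128 and 0.0237 over all alternatives).

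IL6ST, the shared gp130 chain, was lower on each of its 7 probes, but none passed at 24 h. The differences ran from -0.31 to -0.11 with adjusted p from 0.0759 to 0.466 (limma), and the groups overlapped on 3 probes and not on 4. The share of all probes without overlap was not computed, so this count is only a description. The brightest probe (A_33_P3233841) read 10.57, 10.64 and 10.53 in siControl and 10.37, 10.37 and 10.45 in siRND3. The probe nearest the threshold (A_32_P223777) read 7.03, 7.12 and 7.10 against 6.71, 6.69 and 6.93, a difference of -0.31 (limma, adjusted p = 0.0759). Without siRND3 replicate 3 the difference of this probe was -0.38 and passed (limma, adjusted p = 0.0436). The probes of this gene share their transcripts and are not replicates of each other.

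IL6R, the chain that binds IL6 itself, was the only gene of the family whose difference was above 0. It read 6.39, 6.62 and 6.58 in siControl and 6.89, 6.71 and 7.08 in siRND3 at 24 h (A_33_P3288844, NM_000565). The groups did not overlap, yet the difference of 0.36 ± 0.12 did not pass (limma, adjusted p = 0.105). It passed at 0.52 when all 8 arrays were fitted together (limma, adjusted p = 0.0424). OSMR, the oncostatin M chain, read 7.41, 7.30 and 7.48 in siControl and 7.16, 7.36 and 7.37 in siRND3 (A_23_P156289, NM_003999). These values overlap, and the difference was -0.10 with a 95% interval of -0.32 to 0.12 (limma, adjusted p = 0.527).

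STAT3, the transcription factor on which the pathway converges, did not pass on either of its 2 probes (NM_213662). The brighter (A_24_P116805) read 7.65, 7.40 and 7.65 in siControl and 7.28, 7.60 and 7.46 in siRND3 at 24 h, a difference of -0.12 with a 95% interval of -0.40 to 0.16 (limma, adjusted p = 0.564). The other (A_23_P100795) read 6.994, 6.995 and 7.043 against 6.954, 7.103 and 6.911, a difference of -0.02 with a 95% interval of -0.21 to 0.17 (limma, adjusted p = 0.893). The groups overlapped on both probes. These arrays measure the transcript and say nothing of how much STAT3 protein was phosphorylated.

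SOCS3, which STAT3 induces and which in turn blocks gp130, fell by less than LIF, IL11 and IL6. It read 9.95, 9.95 and 9.98 in siControl and 9.42, 9.64 and 9.56 in siRND3 at 24 h (A_23_P207058, NM_003955). The groups did not overlap, and the difference was -0.42 ± 0.08, with a 95% interval of -0.62 to -0.23 (limma, adjusted p = 0.0228). Of the 5 calls it was the least secure, since it was lost without siControl replicate 1, siControl replicate 2 or siControl replicate 3, and also without siRND3 replicate 3 and with the replicate number as a block (limma, adjusted p = 0.0695), with values from -0.47 to -0.36 over the 6 arrays left out in turn (limma, highest adjusted p = 0.0955). IL6, LIF, IL11 and LIFR passed without any 1 of the 6 arrays and under each other alternative run.

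**Figure D2:**
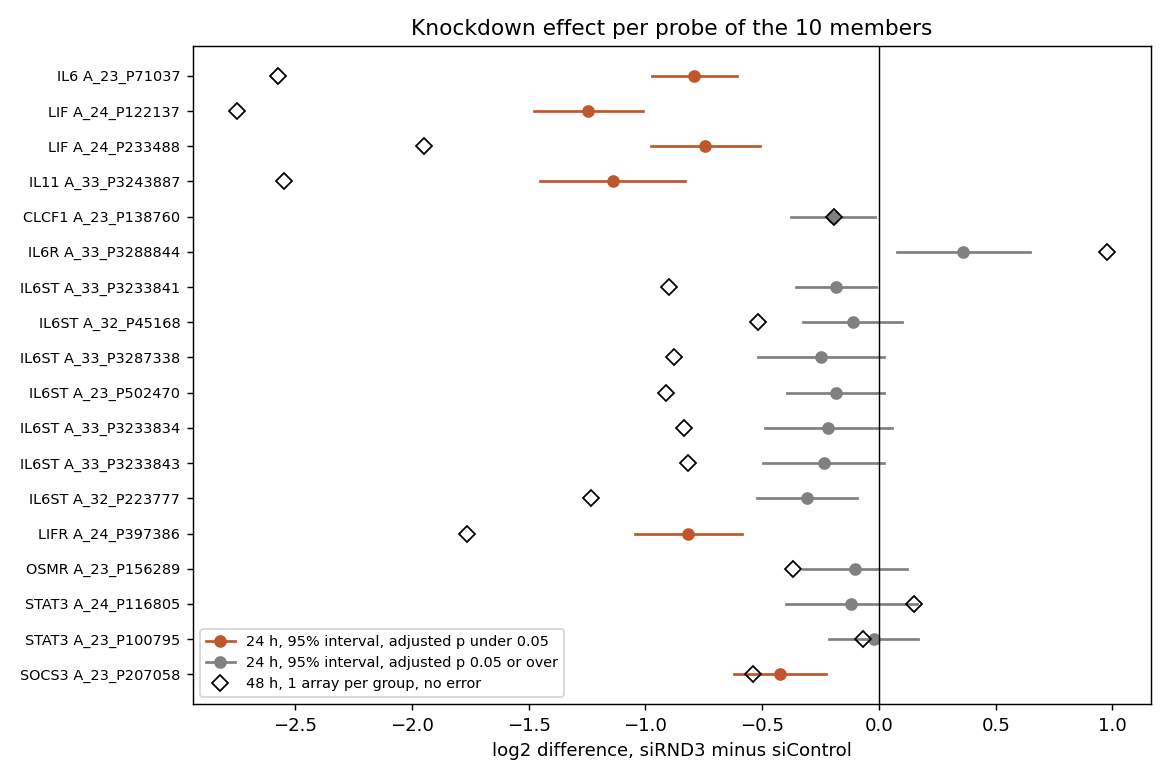
Log2 difference between siRND3 and siControl (horizontal axis) for each of the 18 probes. Circles with 95% intervals are the 24 h differences from 3 arrays per group, orange where the adjusted p was under 0.05, and open diamonds are the 48 h differences from 1 array per group, with no error. IL6, both LIF probes, IL11 and LIFR have diamonds far left of their intervals, and the 7 IL6ST probes have diamonds between -1.23 and -0.52.

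At 48 h the gaps in the ligands were wider. With 1 array per group there is no replicate check at this time, and the values are a description of those 2 arrays. IL6 read 10.88 in siControl and 8.31 in siRND3, which is 16.8% of siControl. LIF read 11.61 and 8.86 on its brighter probe, 14.9% of siControl, and 6.70 and 4.75 on the dimmer one, 25.9%. All 3 ligands that were lower at 24 h were thus lower by more than 4-fold on their brightest probe at 48 h, since IL11 read 10.35 and 7.80, 17.1% of siControl. LIFR read 8.03 and 6.26, 29.4% of siControl. CLCF1 showed no such gap, at 9.62 and 9.42.

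Counted on the brightest probe, 4 of 10 genes (IL6, LIF, IL11 and LIFR) were more than 2-fold lower in siRND3 at 48 h and none was more than 2-fold higher, beside 6.78% and 4.64% of all genes tested. The median difference of the 10 genes was -0.72 with 8 of 10 below 0, and the median over all genes tested was 0.06. IL6ST was lower on each probe, by differences of -1.23 to -0.52, and its brightest probe read 11.03 and 10.13. IL6R was nearly 2-fold higher, at 7.72 in siRND3 and 6.75 in siControl. SOCS3 read 10.45 and 9.91, OSMR 7.82 and 7.45, and the STAT3 probes differed by 0.15 and -0.07.

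Whether the knockdown effect changed between 24 h and 48 h was tested in a fit of all 4 groups. It lends the unreplicated 48 h arrays the spread seen at 24 h. The effect was more negative at 48 h for 3 of 10 genes, against 2.56% of all genes tested, and more positive for none, against 1.68%. IL6 changed most, its effect at 48 h being lower than that at 24 h by a log2 difference of -1.78 ± 0.15 (limma, adjusted p = 0.0141). LIF followed at -1.51 ± 0.20 on the brighter probe and -1.21 ± 0.19 on the dimmer one (limma, adjusted p = 0.0263 and 0.037), and IL11 at -1.41 ± 0.26 (limma, adjusted p = 0.047). At an unadjusted p under 0.05 the counts from limma were 5 (with IL6ST and LIFR) and 1 (IL6R), with no share of all genes to set beside them. The calls rest on few arrays: no gene of the family passed without siControl replicate 1, siControl replicate 2 or siControl replicate 3, and only IL6 passed without siRND3 replicate 2 or siRND3 replicate 3, while the IL6 value itself stayed between -1.82 and -1.74. For SOCS3 the effects at the 2 times differed by -0.11 (95% interval -0.51 to 0.28; limma, adjusted p = 0.794).

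The same fit gives the change with time within each group, and for IL6 and LIF the tested change lay in different groups. In siControl, IL6 was the only gene of the family called, higher at 48 h than at 24 h by 1.37 ± 0.11 (limma, adjusted p = 0.0101). That is 1 of 10 higher and 0 lower, beside 1.19% and 3.99% of all genes tested. With an unadjusted p under 0.05 limma gave 6 higher and 0 lower, counts that have no share of all genes beside them. In siRND3 the IL6 change was -0.41 ± 0.11 (limma, adjusted p = 0.0653). LIF was instead lower at 48 h in siRND3, by -1.19 ± 0.14 and -1.03 ± 0.14 on its probes (limma, adjusted p = 0.00626 and 0.00926), with changes of 0.32 and 0.18 in siControl that did not pass (limma, adjusted p = 0.249 and 0.495). IL11 fell with time in siRND3 by 0.85 on the log2 scale (limma, adjusted p = 0.0369) and IL6R rose by 0.83 (limma, adjusted p = 0.0304). In siRND3 this makes 2 of 10 lower and 1 of 10 higher, beside 9.19% and 3.61% of all genes tested. The IL11 and IL6R calls were lost without siControl replicate 1, siControl replicate 2 or siControl replicate 3. IL11 was also lost without siRND3 replicate 2 and IL6R without siRND3 replicate 1, and LIF passed in each of these fits. The changes of IL6ST in siControl, 0.35 to 0.61 over its 7 probes, did not pass (limma, adjusted p from 0.0576 to 0.25).

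Sequence before the annotated start was examined for the genes that fell together at 24 h. RefSeq windows (GRCh38.p14) were found for 8 of the 10 genes, 11 windows in all, and the 250 bases before each start were searched on both strands for 5 motifs. These were a STAT type site (TTCNNNGAA), an AP-1 type site (TGANTCA), a cAMP response type site (TGACGTCA), a CCAAT enhancer binding protein type site (TTGCNNAA) and the kappa B site, which occur in 6.57%, 6.57%, 1.65%, 9.05% and 5.21% of all 35116 windows of this length. LIF and CLCF1 were not among the windows.

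The windows of IL6, IL11 and LIFR are shown because these genes were lower at 24 h and hold a match; capitals mark the matched bases. The IL6 window lies at chr7:22726950-22727199 on the plus strand, with a CCAAT enhancer type match from position -155 and a kappa B match from position -73, counted from the start. The IL11 window lies at chr19:55370464-55370713 on the minus strand, with an AP-1 type match from position -96. The LIFR window, the first of 3 annotated starts, lies at chr5:38595406-38595655 on the minus strand, with a STAT type match from position -165.
IL6: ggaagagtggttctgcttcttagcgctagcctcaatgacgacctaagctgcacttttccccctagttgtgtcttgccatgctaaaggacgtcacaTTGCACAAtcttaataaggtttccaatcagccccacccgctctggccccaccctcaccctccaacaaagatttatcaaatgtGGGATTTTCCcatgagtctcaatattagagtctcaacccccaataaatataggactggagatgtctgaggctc
IL11: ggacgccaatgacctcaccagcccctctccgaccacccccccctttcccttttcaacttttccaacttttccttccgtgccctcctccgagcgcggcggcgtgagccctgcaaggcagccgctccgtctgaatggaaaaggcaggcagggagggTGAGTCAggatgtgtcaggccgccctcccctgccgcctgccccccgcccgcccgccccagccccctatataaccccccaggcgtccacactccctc
LIFR: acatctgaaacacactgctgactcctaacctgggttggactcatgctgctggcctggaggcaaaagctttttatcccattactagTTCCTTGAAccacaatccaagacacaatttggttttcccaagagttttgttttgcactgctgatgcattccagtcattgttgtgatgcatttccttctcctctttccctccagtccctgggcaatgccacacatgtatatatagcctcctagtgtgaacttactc

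The matches differ between the genes that fell. IL6, IL11 and the first LIFR window share no motif among the 5, no match overlaps another, and both windows of SOCS3 hold none of them. The second LIFR window also holds a STAT type match from position -182 and a CCAAT enhancer type match from position -31. OSMR, which did not pass the test, holds a CCAAT enhancer type match from position -73, and the windows of IL6ST, IL6R and STAT3 hold no match. A match is a run of letters in the reference and no measurement of binding in these cells.

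**Figure D3:**
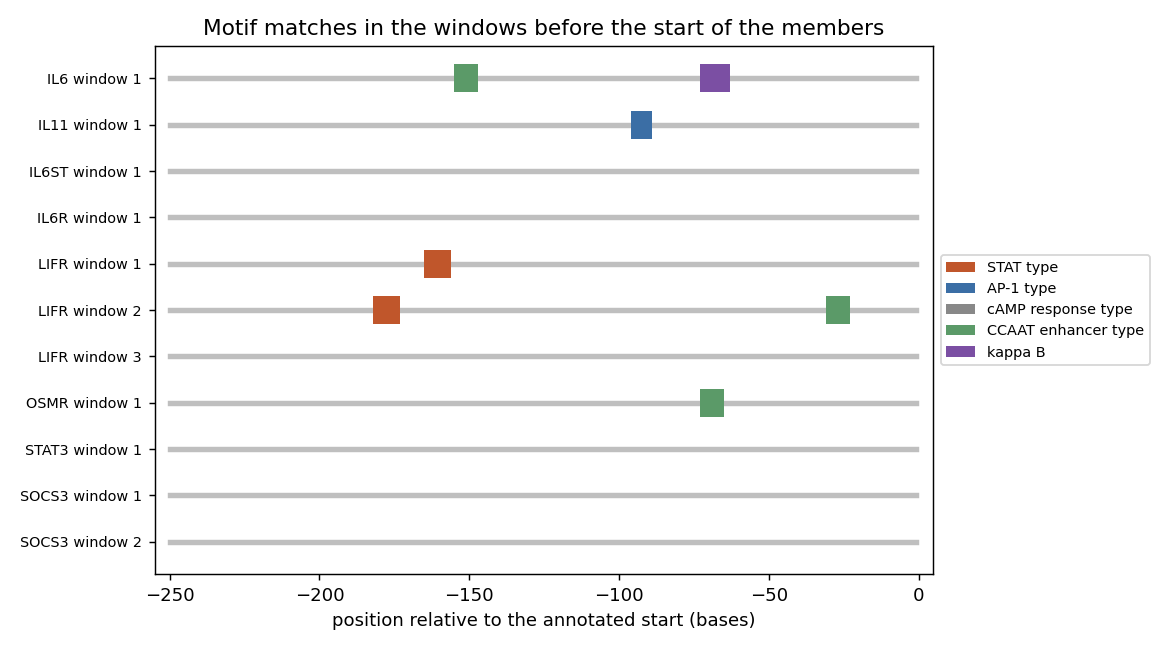
Position of each motif match in the 11 windows of 8 genes (grey bars; horizontal axis in bases before the annotated start), with 1 colour per motif. IL6 carries a CCAAT enhancer type and a kappa B match, IL11 an AP-1 type match, and STAT type matches are seen in the first 2 LIFR windows only.

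Few other genes of the pathway were called at 24 h. Of a list of 43 further ligands, receptor chains, kinases, STAT factors, inhibitors, sheddases and adaptors, 38 were tested, 2 were lower and none was higher (limma), which is 5.26% and 0% of those tested beside the 9.26% and 7.16% of all genes given above. At an unadjusted p under 0.05, where the share of all genes was not computed, limma gave 4 lower and 4 higher. SAM gave 2 and 0. SOCS7 and SOCS2, inhibitors of the same family as SOCS3, were the genes called. SOCS7 read 5.52, 5.73 and 5.60 in siControl and 4.84, 5.08 and 4.95 in siRND3, a difference of -0.66 ± 0.10 (limma, adjusted p = 0.00872), and 5.44 against 5.01 at 48 h. SOCS2, a brake on growth hormone signalling, read 6.57, 6.42 and 6.53 in siControl and 5.87, 6.01 and 6.04 in siRND3, a difference of -0.53 ± 0.08 (limma, adjusted p = 0.0115), and 7.17 against 5.73 at 48 h. On both genes the groups were apart at 24 h. The SOCS2 call was lost without siControl replicate 1 or siControl replicate 3, with values from -0.58 to -0.48 over the 6 arrays left out in turn, and the SOCS7 call was lost after normexp correction, at a difference of -0.19.

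The JAK kinases, which carry the signal from the receptor chains to STAT3, did not pass at 24 h. JAK1 read 9.05, 8.66 and 8.93 in siControl and 8.38, 8.66 and 8.69 in siRND3, a difference of -0.30 (95% interval -0.63 to 0.02; limma, adjusted p = 0.204). JAK2 differed by 0.19 (limma, adjusted p = 0.254), the 2 JAK3 probes by 0.11 and 0.15 (limma, adjusted p = 0.615 and 0.548) and TYK2 by 0.14 (limma, adjusted p = 0.508). Over the 36 tested pathway genes that were not called, the probes differed by -0.37 to 0.30. The median of the list was 0.02 at 24 h and 0.11 at 48 h, close to the 0.04 and 0.06 of all genes tested.

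Genes known as transcriptional targets of STAT3 went both ways. Of 34 such genes, 29 were tested, and 3 were lower and 2 higher at 24 h (limma), or 10.3% and 6.9% of those tested, near the 9.26% and 7.16% of all genes. IER3, an early response gene linked to cell survival, was lower on both of its probes. The brighter (A_23_P42257) read 13.38, 13.48 and 13.45 in siControl and 12.81, 12.84 and 12.75 in siRND3, a difference of -0.64 ± 0.07 (limma, adjusted p = 0.00346), and 13.84 against 11.90 at 48 h. CEBPB, a leucine zipper factor of the acute phase response, fell by 0.28 (limma, adjusted p = 0.0405) and MYC, a driver of growth, by 0.27 (limma, adjusted p = 0.0499). BIRC5, the apoptosis inhibitor survivin, rose by 0.31 (limma, adjusted p = 0.0336) and ETS2, a transcription factor, by 0.39 (limma, adjusted p = 0.0465). IER3 passed without each of the 6 arrays in turn, whereas the CEBPB, MYC, BIRC5 and ETS2 calls were each lost when any 1 of the 3 siControl or 3 siRND3 arrays was left out, with values of -0.29 to -0.27, -0.28 to -0.26, 0.29 to 0.32 and 0.31 to 0.45. The target median was -0.06 at 24 h and -0.18 at 48 h. At 48 h, 2 pathway genes (SOCS1 and SOCS2) and 2 target genes (CCND1 and IER3) were more than 2-fold lower in siRND3, and none was more than 2-fold higher. These are 5.26% of the pathway genes and 6.9% of the target genes tested, near the 6.78% of all genes that were lower by that much, beside 4.64% higher.

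**Figure D4:**
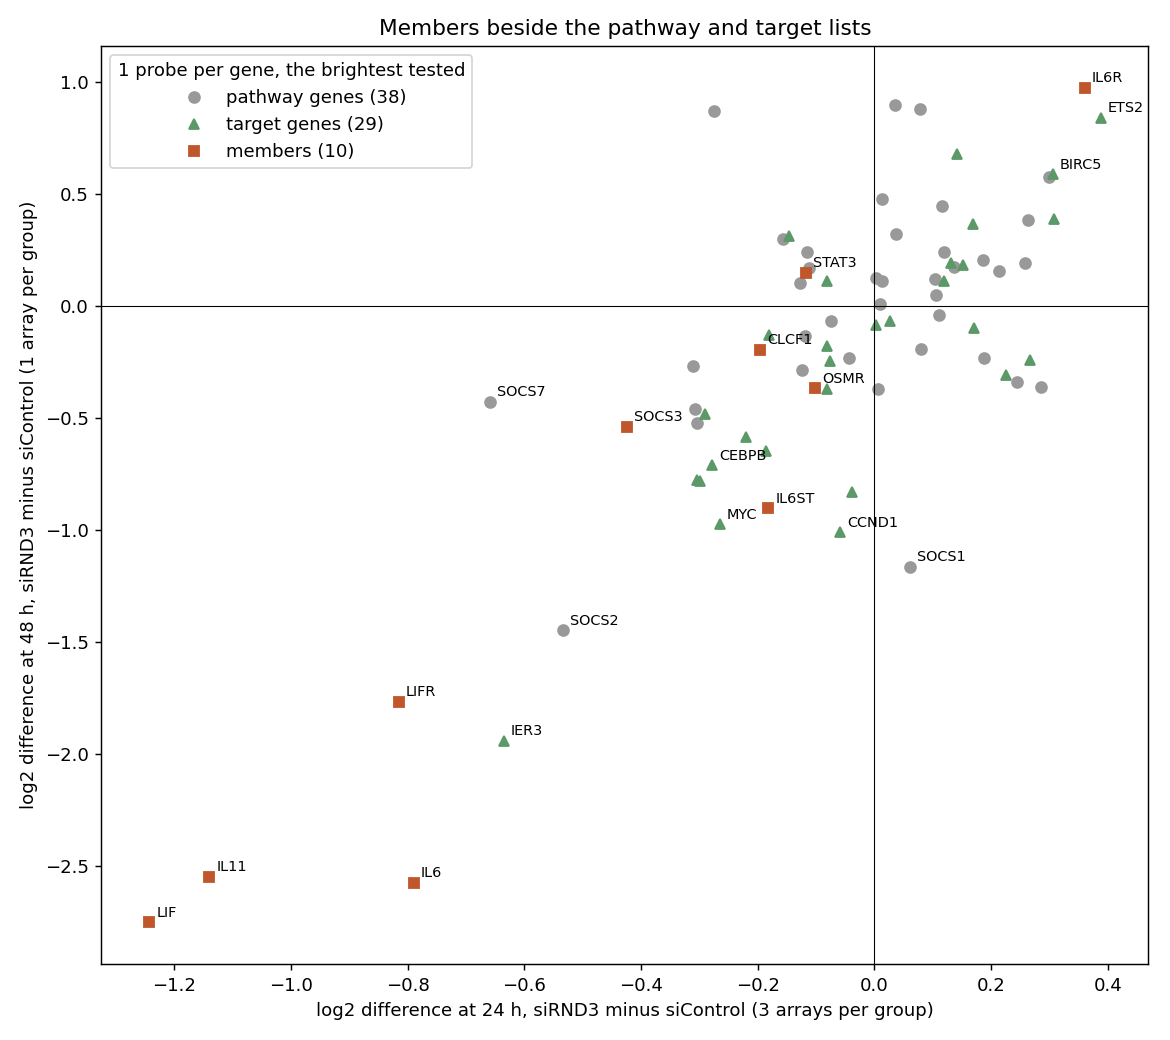
Log2 difference between siRND3 and siControl at 24 h (horizontal axis, 3 arrays per group) against that at 48 h (vertical axis, 1 array per group) for the tested genes of the family (orange squares), the other pathway genes (grey circles) and the STAT3 target list (green triangles), each by its brightest tested probe. LIF, IL11, IL6 and LIFR lie at the lower left with IER3 and SOCS2, and most pathway and target genes lie near 0 on the 24 h axis.

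The probes whose course over the 8 arrays was most like that of IL6 and LIF were also looked up, by the root mean square distance of log2 values after centring each probe. For IL6 they were PTX3, a secreted pentraxin of innate immunity, at a distance of 0.129, CXCL1, a chemokine that attracts neutrophils, at 0.167, and ARHGAP45, a GTPase activating protein, at 0.17. PTX3 and CXCL1 differed by -0.81 and -0.80 at 24 h (limma, adjusted p = 0.00253 and 0.00991) and by -2.50 and -2.96 at 48 h. ARHGAP45 differed by -0.55 at 24 h, which did not pass (limma, adjusted p = 0.0509), and by -2.27 at 48 h. For LIF they were SLC25A43, a mitochondrial carrier, at 0.13, TPMT, a thiopurine methyltransferase, at 0.135, and SH3GLB1, a membrane curvature protein, at 0.136, with 24 h differences of -1.13, -1.11 and -1.22 (limma, adjusted p = 0.000817, 0.000884 and 0.000438). None of these genes belongs to the cytokine family, and the measure is a description over 8 arrays of 4 groups. All were picked for a course like that of IL6 or LIF on these same arrays. Their differences and p-values therefore follow in part from that choice and are not separate results.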

How the data were processed

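The members and the pathway, target and marker lists were chosen with earlier results of these data known. RNA from U87 cells was labelled with Cy3 and hybridised to 8 Agilent arrays of 1 colour. The authors ran Agilent Feature Extraction 10.7.3.1, and what they deposited per array is a linear spot intensity, corrected for background within each array and not scaled between arrays. The authors also deposited a log2 table, for which quantile normalisation is stated; its direction and scale were set against the spot medians, and it served as an alternative. Its column medians were 6.58 to 6.59.

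Here the processed intensities of 58717 spots were log2-transformed and brought to common quantiles across the 8 arrays, control spots (4259) and outlier spots (0.36% to 0.53% per array) were left out, and spots of a probe were averaged. No spot was saturated. Of 42405 probes, 25422 (60%) were tied to 1 gene, by RefSeq accession only. Groups and replicate numbers came from the labels. A probe was tested when well above background on all arrays of a group at 24 h (28759 probes). Tests were limma 3.58.1 in R 4.3.3 with p-values adjusted by Benjamini and Hochberg over every probe tested, on the 6 arrays at 24 h or on all 8 in 4 groups. Scripts were tested on simulated data. The number of arrays limits the precision. Named were RND3, all members, the JAK kinases and every gene of the pathway and target lists called at 24 h; other list genes named for their change with time were chosen after their values were seen. Alternatives were scaling to the 75th percentile, normexp background correction (offset 50), the authors' log2 values, no filter or a stricter one, SAM, all 8 arrays in 1 fit, a replicate block, the mean of a gene's probes, and leaving out each array.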

Additional observations from a re-analysis of the deposited data

Results flagged for a closer look

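For several genes the knockdown effect at 48 h differed from that at 24 h by the interaction term of the fit over 4 groups (limma, all 8 arrays, 1 array per group at 48 h). In the cytokine family these were IL6 at a log2 difference of -1.78 (adjusted p = 0.0141), LIF at -1.51 and -1.21 on its 2 probes (adjusted p = 0.0263 and 0.037) and IL11 at -1.41 (adjusted p = 0.047). Of the pathway list they were SOCS1 at -1.22 (adjusted p = 0.0263) and SOCS2 at -0.91 (adjusted p = 0.0475). Of the target list they were IER3 at -1.30 and -1.34 on its 2 probes (adjusted p = 0.0196 for both) and MYC at -0.71 (adjusted p = 0.0489). All of these were lower at 48 h, and all were lost without siControl replicate 1, siControl replicate 2 or siControl replicate 3. Samples far from the rest of their group were not looked for, since groups of 3 and of 1 are too small for that rule.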

How the results depend on the processing

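No tested value of the 10 genes turned its direction past the threshold: of 864 alternatives over their probes and comparisons, 798 kept their side of the threshold, 38 lost it and 28 gained it. The fall of IL6, LIF, IL11 and LIFR at 24 h passed under each alternative run. Leaving out each array in turn gave 1 to 2 pathway genes lower, 1 to 2 target genes lower and 0 target genes higher at 24 h, 0 to 3 members with a different effect at 48 h, 1 to 2 changed with time in siControl and 1 to 3 in siRND3. Normexp correction gave 1 pathway gene and 5 target genes lower, 5 members with a different effect at 48 h and 5 changed with time in siControl, where the authors' values gave 4, the stricter filter 3 and the 75th percentile 3. The stricter filter gave 5 members with a different effect at 48 h, and no filter gave 1 member changed with time in siRND3 and 1 target gene higher. Target genes lower at 24 h numbered 1 with the 75th percentile, and 5 with the authors' values, with all 8 arrays in 1 fit and with the mean of a gene's probes. Pathway genes higher numbered 1 with the 75th percentile, 1 with all 8 arrays and 2 with the mean of probes, and all 8 arrays gave 1 member higher (IL6R). The causes were not tested.

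The replicate numbers are shared by the groups, but same-numbered arrays deviated together with correlations of 0.00, -0.01 and 0.13, and not every array correlated best with its own number, so the numbers were not taken as pairs. With the replicate number as a block, 4 members (SOCS3 was lost), 1 pathway gene and 1 target gene were lower and 0 target genes were higher at 24 h, and 1651 probes were called over the whole array, beside 3350 without the block. Leaving out each array gave 1379 to 2574 probes. For the change with time in siControl, 23.2% of the called probes were higher with quantiles, 36.1% with the 75th percentile, 34.8% after normexp correction and 46.6% with no filter. For the change with time in siRND3 the share was 28.6% with quantiles and 41.1% after normexp correction. At 24 h it was 45.2% with quantiles and 52.6% with the 75th percentile, which puts most of the calls on the higher side. With 1 array per group at 48 h, those differences have no replicate check, and signal over background did not limit the 18 probes of the family.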

Other observations

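Some genes of the pathway and target lists also changed between 24 h and 48 h within siControl cells (limma over 4 groups, 1 array per group at 48 h). SOCS1, a JAK inhibitor induced by cytokines, read 7.41, 7.45 and 7.39 in siControl at 24 h and 9.23 at 48 h, a log2 change of 1.82 (limma, adjusted p = 0.0101). In siRND3 it read 7.43, 7.41 and 7.59 at 24 h and 8.07 at 48 h, a change of 0.60 (limma, adjusted p = 0.0249). Its difference between siRND3 and siControl was thus 0.06 at 24 h (limma, adjusted p = 0.668) and -1.16 at 48 h, where each group has 1 array. SOCS2 and CISH, inhibitors of the same family, rose in siControl by 0.66 and 0.84 (limma, adjusted p = 0.0384 and 0.0477), which makes 3 of the 38 pathway genes tested (7.89%), and none was lower, beside 1.19% higher and 3.99% lower of all genes tested. SOCS3 read 9.95, 9.95 and 9.98 at 24 h and 10.45 at 48 h in siControl, a change of 0.49 that did not pass (limma, adjusted p = 0.0778). Of the 29 target genes tested, BCL3, an atypical IkappaB protein, IRF1, an interferon regulatory factor, and ICAM1, an adhesion molecule, rose in siControl by 1.04, 0.70 and 0.65 (limma, adjusted p = 0.0148, 0.0405 and 0.0457), and BIRC5 fell by 0.52 (limma, adjusted p = 0.0403), which is 10.3% higher and 3.45% lower beside the same shares of all genes.

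In siRND3 cells, 7 of the 38 pathway genes tested (18.4%) were higher at 48 h than at 24 h and none was lower (limma), beside 3.61% higher and 9.19% lower of all genes tested. Among them were IL27RA, STAT4, SOCS1, PIAS4 and the sheddases ADAM10 and ADAM17, with IL27RA, a receptor chain that pairs with gp130, up by 1.05 (limma, adjusted p = 0.0275). Of the target genes, the growth genes MYC, FOS and CCND1 and the early response gene IER3 were lower, with MYC down by a change of -1.15 and FOS by -0.91 (limma, adjusted p = 0.00295 and 0.0113), and BCL3 and JUNB were higher, or 13.8% lower and 6.9% higher of the 29 target genes tested. At an unadjusted p under 0.05 the pathway counts were 12 higher and 0 lower in siRND3 and 13 higher and 4 lower in siControl. The shares of all genes at that threshold were not computed.
Without siControl replicate 1, siControl replicate 2 or siControl replicate 3, SOCS1 kept its call in siControl at 1.81 to 1.83 over the arrays left out, while those of SOCS2, CISH, BCL3, IRF1, ICAM1 and BIRC5 were lost. In siRND3 the calls of MYC, FOS and IER3 were kept under each alternative run, and SOCS1, IL27RA, STAT4, PIAS4, ADAM10, ADAM17, CCND1, BCL3 and JUNB were each lost without at least 1 of the 6 arrays.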
